A study of Homo sapiens with 8 samples.

Results

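The genes of homologous recombination and the Fanconi repair pathway described here were 35 listed by name, and 31 of them were found through the platform's gene symbols among 18995 gene entries in the deposited table. Each of the 31 had a single probe set with 1 symbol. The other 4, BRCA2, FANCA, FANCD2 and RBBP8, were not analysed here.

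Homologous recombination copies an intact sister chromatid to mend a broken DNA double strand, and the Fanconi pathway uses the same machinery to repair DNA strands that are cross-linked to each other. In textbook order, the MRE11, RAD50 and NBN complex and then EXO1 and the BLM helicase trim the broken end, BRCA1 with its partners acts at the exposed strand, and XRCC2, XRCC3, RAD51C and the RAD54 proteins act as that strand invades its copy. The Fanconi core complex adds ubiquitin to a pair of proteins of which FANCI is one, and the kinases ATM, ATR, CHEK1 and CHEK2 signal the damage. Many of these genes are transcribed mainly while a cell prepares for and passes through DNA replication, and inherited defects in several of them, BRCA1, ATM, CHEK2 and PALB2 among them, occur in prostate cancer.

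Expression was measured on 8 arrays of LNCaP and DU145, established prostate cancer lines, of which LNCaP depends on androgen receptor signalling and DU145 does not. In each line, the constructs transfected 72 hours before RNA extraction were an siRNA against TET2 (siTET2), its control siRNA (siControl), the microRNA miR-29b, and a negative control miRNA (nc). There was 1 array per line and construct, so no group had a replicate, and the labels name a single siRNA construct against TET2. A difference between 2 arrays of a line has no p-value here, and it holds the difference between dishes and arrays as well as that between constructs. TET2, a dioxygenase that oxidises 5-methylcytosine, was the targeted gene, and it stood at a log2 level of 7.89 in the siTET2 array, against 9.01 in the siControl array of LNCaP, a difference of -1.12. In DU145 its level was 6.60 with siTET2 and 7.85 with siControl, a difference of -1.25. The miR-29b arrays held it at 8.59 in LNCaP and 7.79 in DU145, and the nc arrays at 9.24 in LNCaP and 7.96 in DU145. The cells carried the markers of their lines: the LNCaP arrays had 8 or 9 of 9 LNCaP markers above the array median and 1 of 10 DU145 markers, and the DU145 arrays had 8 of the 10 DU145 markers and 1 of the 9 LNCaP markers. Each array had 1 of 11 immune markers and 0 to 2 of 10 fibroblast markers above that median. In bulk RNA, fewer cells of a kind and less RNA per cell cannot be told apart. The medians over all probe sets lay between 7.10 and 7.17 in LNCaP and between 6.59 and 6.66 in DU145, so levels are compared within a line only. A level is a deposited log2 value of 1 probe set, and levels of different genes are not compared. All differences are tested array minus control array on the log2 scale.

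The microRNA that was transfected is shown with its seed, bases 2 to 8, in capitals. The labels name miR-29b without an arm, and the mature 3p form in RefSeq (GRCh38.p14) is given. It is encoded identically at chr1:207802450-207802472 and chr7:130877467-130877489, both on the minus strand.

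hsa-miR-29b-3p: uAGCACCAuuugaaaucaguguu

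Because many of the genes were lower together in LNCaP, the starts of the genes were searched for short motifs that cell cycle promoters often carry. RefSeq windows (GRCh38.p14) from 250 bases before to 50 bases after a start were found for 27 of the 31 genes, in 37 windows; FANCI, NBN, RAD54B and TONSL were not searched. The motifs, searched on both strands, were E2F-like, CHR-like (TTTGAA) and CCAAT. An E2F-like match was the string TTCCCGC, the string TTCGCGC, the string TTGCCGC or the string TTGGCGC. The last of these can share bases with the reverse complement of a CCAAT match. The 3 genes with the lowest siTET2 difference in LNCaP among those with 1 window come first, followed by the 3 with the difference nearest 0, and capitals mark every match.

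FANCB (chrX:14873020-14873319, minus strand): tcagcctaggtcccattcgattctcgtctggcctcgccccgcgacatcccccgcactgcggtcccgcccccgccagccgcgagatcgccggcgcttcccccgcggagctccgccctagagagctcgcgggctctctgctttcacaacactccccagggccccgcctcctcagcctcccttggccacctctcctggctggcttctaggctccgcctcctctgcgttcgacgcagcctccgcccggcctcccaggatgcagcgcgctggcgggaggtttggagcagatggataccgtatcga
BLM (chr15:90717096-90717395, plus strand): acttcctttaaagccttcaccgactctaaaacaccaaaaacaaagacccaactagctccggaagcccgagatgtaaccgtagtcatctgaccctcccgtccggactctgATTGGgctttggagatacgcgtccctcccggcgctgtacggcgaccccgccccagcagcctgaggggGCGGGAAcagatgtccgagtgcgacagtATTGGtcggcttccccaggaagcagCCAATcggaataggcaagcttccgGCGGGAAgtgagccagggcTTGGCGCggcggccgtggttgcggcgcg
RAD51AP1 (chr12:4538640-4538939, plus strand): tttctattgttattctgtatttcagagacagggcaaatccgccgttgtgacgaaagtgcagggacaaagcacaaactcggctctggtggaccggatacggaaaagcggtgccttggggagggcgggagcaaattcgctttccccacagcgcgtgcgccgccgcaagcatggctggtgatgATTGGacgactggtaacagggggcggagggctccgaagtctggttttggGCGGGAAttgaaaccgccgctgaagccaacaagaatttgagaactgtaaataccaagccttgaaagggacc
PALB2 (chr16:23641261-23641560, minus strand): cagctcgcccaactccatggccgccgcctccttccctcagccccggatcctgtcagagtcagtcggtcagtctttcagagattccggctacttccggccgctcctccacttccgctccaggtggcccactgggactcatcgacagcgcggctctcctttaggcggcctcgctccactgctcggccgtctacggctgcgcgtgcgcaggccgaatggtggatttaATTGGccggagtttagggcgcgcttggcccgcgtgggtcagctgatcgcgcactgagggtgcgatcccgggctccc
RAD50 (chr5:132556727-132557026, plus strand): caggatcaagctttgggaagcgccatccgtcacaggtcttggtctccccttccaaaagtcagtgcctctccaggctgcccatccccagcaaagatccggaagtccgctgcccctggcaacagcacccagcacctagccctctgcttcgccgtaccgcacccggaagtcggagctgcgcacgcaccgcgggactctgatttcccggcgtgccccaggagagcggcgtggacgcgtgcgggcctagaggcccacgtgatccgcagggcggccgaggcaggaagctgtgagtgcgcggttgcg
BARD1 (chr2:214809634-214809933, minus strand): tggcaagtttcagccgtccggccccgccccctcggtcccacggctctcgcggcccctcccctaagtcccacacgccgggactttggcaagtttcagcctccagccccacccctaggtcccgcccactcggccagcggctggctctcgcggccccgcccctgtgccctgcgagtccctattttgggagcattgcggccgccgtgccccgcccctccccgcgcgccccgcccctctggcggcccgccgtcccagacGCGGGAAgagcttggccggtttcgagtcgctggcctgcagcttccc

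BLM held 3 E2F-like and 3 CCAAT matches, RAD51AP1 held 1 of each, and FANCB, whose difference was as large as that of BLM, held none. Among the genes whose difference was near 0, BARD1 held 1 E2F-like match, PALB2 held 1 CCAAT match and RAD50 held none. Over the 37 windows, 54.1% held an E2F-like match, against 13.0% of 35116 windows in the RefSeq table. A CCAAT match stood in 51.4% of these windows and in 34.6% of all windows, and a CHR-like match in 8.11% and in 15.2%. Of the 14 genes with a window that were at least 1.5-fold lower with siTET2 than with siControl in LNCaP, 10 held an E2F-like match in any window. Of the other 13 genes 7 did. The same split by gene for CCAAT was 10 of 14 and 5 of 13, and for the CHR-like motif 2 of 14 and 1 of 13. The 14 genes had more windows, 22, than the other 13, which had 15. By window the shares were 59.1% and 46.7% for E2F-like matches, 59.1% and 40.0% for CCAAT, and 9.09% and 6.67% for the CHR-like motif. These matches describe letters in a window and no binding.

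In LNCaP cells the siTET2 array was lower than the siControl array for most of these genes, across end resection, strand exchange, the Fanconi pathway and checkpoint signalling. The median difference of the 31 genes was -0.53, beside 0.012 over the 9719 genes above a level floor (the higher of the 2 arrays at or above its 50th percentile over genes), and all 31 genes were above that floor. Of the 31, 15 were at least 1.5-fold lower (0.585 or more below 0 on the log2 scale), beside 2.30% of all genes, and 0 were 1.5-fold higher, beside 0.391%. Set against the nc array instead, 0 genes were 1.5-fold lower, beside 0.460% of all genes, and the median was -0.22 over the 28 genes above the floor of that comparison and -0.14 over all 31. Against siControl, 27 genes were below 0, beside 47.3% of all genes, and the range ran from -0.997 for BRCA1 to 0.013 for BARD1. Nearest to the 1.5-fold line were CHEK2 (-0.61), MMS22L (-0.61) and MRE11 (-0.60) on the lower side, and XRCC2 (-0.53) and FANCG (-0.53) on the other.

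**Figure D1:**
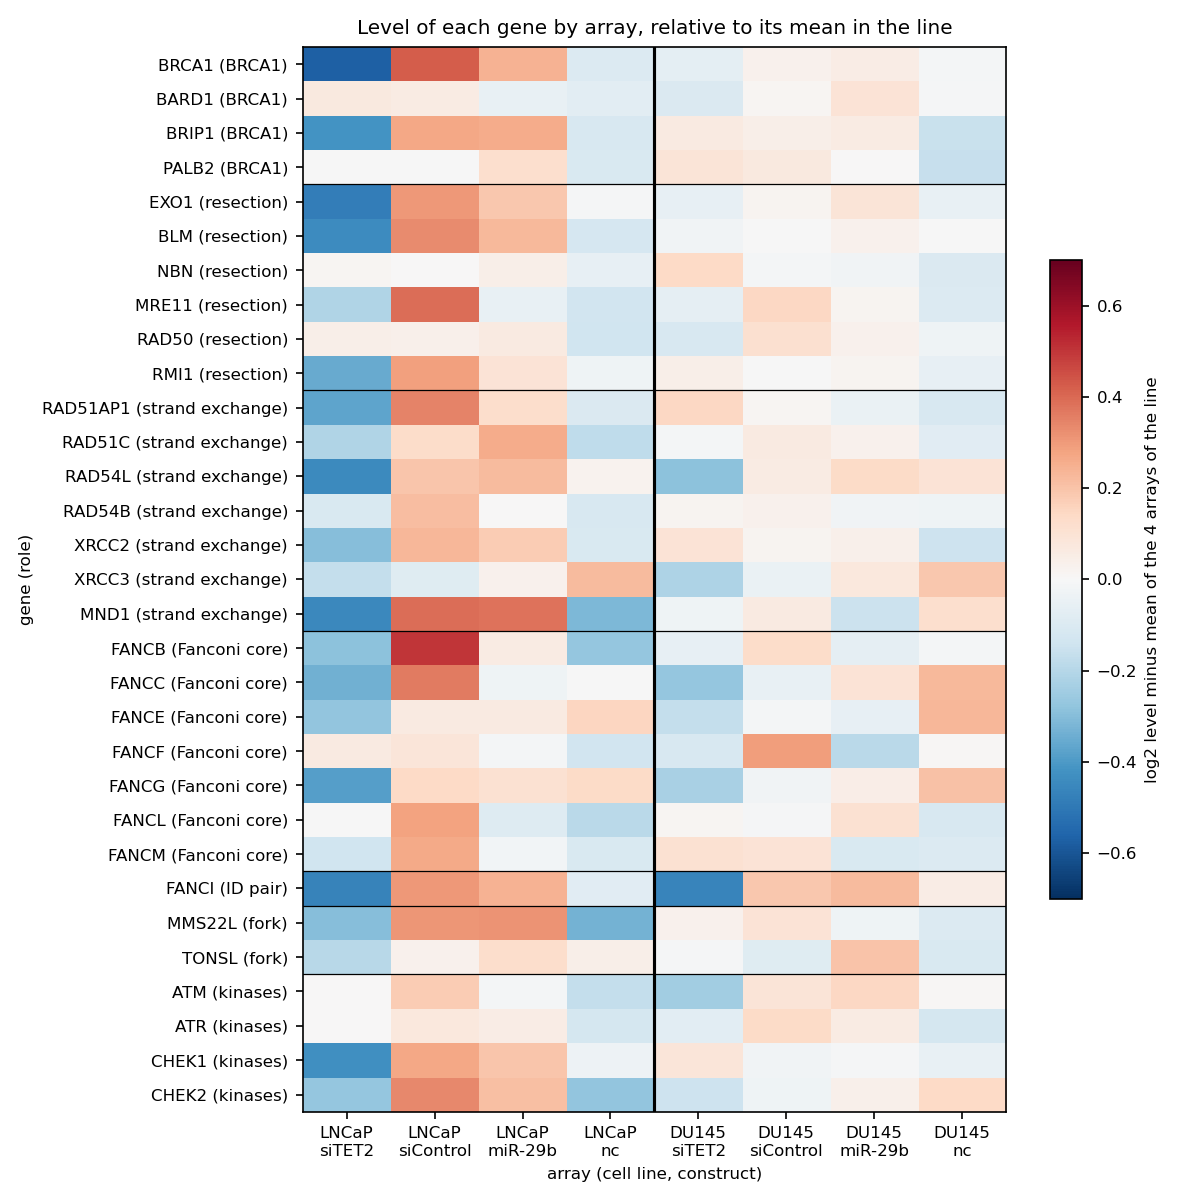
Log2 level of each of the 31 genes (rows, grouped by role; "ID pair" is FANCI) in each of the 8 arrays (columns), after subtracting the gene's mean over the 4 arrays of its line; blue is below and red above that mean. In LNCaP the siTET2 column is the lowest for 20 of the 31 genes and the siControl column the highest for 21, while in DU145 the colours are paler and FANCI with siTET2 is the darkest blue.

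The 4 measured genes of the BRCA1 complexes split into pairs. BRCA1, the ubiquitin ligase subunit that directs broken ends to recombination, had a level of 8.21 in the siTET2 array, against 9.21 in the siControl array of LNCaP, and 9.03 with miR-29b, against 8.69 with nc. The difference between siTET2 and siControl was -0.997, close to 2-fold, and the siTET2 array was the lowest of the 4. In DU145 its levels were 9.02 with siTET2, 9.12 with siControl, 9.14 with miR-29b and 9.08 with nc, which differ by little more than 0.1. BRIP1, the helicase that binds BRCA1, had a difference of -0.69 in LNCaP and 0.021 in DU145. BARD1, the obligate partner of BRCA1, was chosen after its values were seen because it lay at the other end of the range: its LNCaP levels were 10.95 with siTET2, 10.94 with siControl, 10.83 with miR-29b and 10.81 with nc. PALB2, a binding partner of BRCA1, had a difference of 0.0004 in LNCaP and 0.021 in DU145. BRCA1 and its binding partner BARD1 thus stood at opposite ends of the 31 differences from siControl in LNCaP. In DU145 they did not: the difference was -0.11 for BARD1 and -0.097 for BRCA1. The DU145 levels of BARD1 were 8.51 with siTET2, 8.62 with siControl, 8.70 with miR-29b and 8.60 with nc.

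Of the 6 genes of end resection and Holliday junction dissolution, 4 were at least 1.5-fold lower with siTET2 in LNCaP, and the median of the 6 was -0.62. EXO1, the exonuclease of long-range resection, had levels of 8.34 with siTET2, against 9.13 with siControl in LNCaP, and of 9.02 with miR-29b, against 8.82 with nc. Its DU145 levels were 9.59 with siTET2, 9.67 with siControl, 9.73 with miR-29b and 9.59 with nc. BLM, the Bloom syndrome helicase, stood at 8.09 with siTET2 and 8.86 with siControl in LNCaP, and at 8.75 with miR-29b and 8.41 with nc. In both genes the LNCaP siTET2 array was the lowest of 4, and the differences from siControl were -0.79 and -0.77. The DU145 levels of BLM were 9.38 with siTET2, 9.40 with siControl, 9.44 with miR-29b and 9.41 with nc, and its siTET2 difference there was -0.020. RMI1, which works with BLM to dissolve Holliday junctions, had a difference of -0.64 in LNCaP and 0.045 in DU145. The 3 subunits of the break-sensing complex differed among themselves in LNCaP: MRE11, its nuclease, had a difference of -0.60, while RAD50 and NBN were at 0.0033 and 0.0078.

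Among the 7 genes of strand exchange, all 7 were below 0 with siTET2 in LNCaP, 3 of them at least 1.5-fold, and the median was -0.53. MND1, which acts with its partner PSMC3IP to stimulate strand exchange, had levels of 7.95 with siTET2, against 8.80 with siControl in LNCaP, and of 8.78 with miR-29b, against 8.09 with nc. Its siTET2 and nc arrays were close to each other and its siControl and miR-29b arrays were close to each other, so that the difference from siControl was -0.84 and that from nc -0.14. In DU145 its levels were 7.16 with siTET2, 7.25 with siControl, 7.04 with miR-29b and 7.31 with nc, which is under the level floor of that line. RAD51AP1, an accessory factor of strand exchange, stood at 8.62 with siTET2 and 9.34 with siControl in LNCaP, and at 9.11 with miR-29b and 8.89 with nc. In DU145 it stood at 8.92 with siTET2, 8.79 with siControl, 8.73 with miR-29b and 8.66 with nc. The siTET2 array was thus the lowest of its 4 arrays in LNCaP (-0.72 against siControl) and the highest in DU145 (0.13). RAD54L, a DNA translocase, was given in full after its values were seen, because it came second in the fit over both lines. Its levels were 8.09 with siTET2, against 8.72 with siControl in LNCaP, and 8.75 with miR-29b, against 8.56 with nc. In DU145 they were 7.06 with siTET2, against 7.40 with siControl, and 7.48 with miR-29b, against 7.44 with nc, and the siTET2 array was the lowest in both lines. XRCC2, RAD51C and XRCC3 had LNCaP differences of -0.53, -0.34 and -0.080, and RAD54B, a relative of RAD54L, one of -0.32.

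The 7 measured genes of the Fanconi core complex and its anchor were all below 0 with siTET2 in LNCaP, with a median of -0.40, and 2 were at least 1.5-fold lower. FANCB had levels of 7.17 with siTET2, against 7.95 with siControl in LNCaP, and of 7.51 with miR-29b, against 7.18 with nc. The siControl array was the highest of the 4 in this gene, and siTET2 differed from siControl by -0.78 and from nc by -0.0135. Its DU145 levels were 7.42 with siTET2, 7.61 with siControl, 7.42 with miR-29b and 7.47 with nc. FANCC stood at 7.69 with siTET2 and 8.39 with siControl in LNCaP, and at 7.99 with miR-29b and 8.02 with nc. In DU145 it stood at 7.87 with siTET2 and 8.09 with siControl, and at 8.24 with miR-29b and 8.37 with nc, so that siTET2 was the lowest array in both lines. FANCG, which holds the core complex together, had differences of -0.53 from siControl and -0.52 from nc in LNCaP, and of -0.20 and -0.43 in DU145. FANCE had -0.34 and -0.43 in LNCaP and -0.16 and -0.40 in DU145. FANCM, the DNA translocase that anchors the complex, FANCL, its ubiquitin ligase, and FANCF had LNCaP differences from siControl of -0.40, -0.29 and -0.025.

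FANCI, the measured member of the protein pair that the core complex ubiquitinates, had levels of 10.13 with siTET2, against 10.90 with siControl in LNCaP, and of 10.84 with miR-29b, against 10.52 with nc. In DU145 its levels were 9.61 with siTET2, against 10.27 with siControl, and 10.30 with miR-29b, against 10.13 with nc. The siTET2 array was the lowest in both lines, by 1.70-fold in LNCaP and 1.57-fold in DU145 against siControl, and FANCI was the one gene of the 31 to pass 1.5-fold in both.

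**Figure D2:**
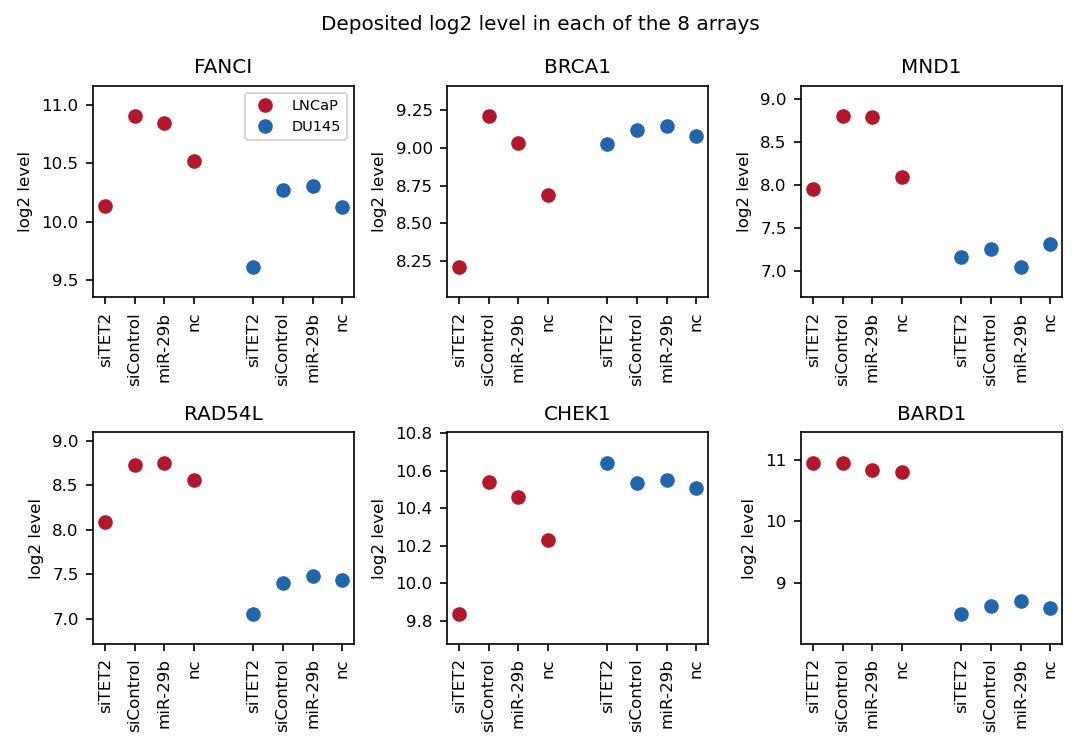
Deposited log2 level of 6 genes (vertical axes, each with its own range) in the 8 arrays, with 1 point per array, LNCaP in red and DU145 in blue. FANCI, RAD54L and BRCA1 have their lowest point with siTET2 in both lines, with BRCA1 in DU145 at a difference of only -0.057 from nc. MND1 and CHEK1 have it with siTET2 in LNCaP but not in DU145. BARD1 has it with siTET2 in DU145 but not in LNCaP, and differs little among the arrays of a line.

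Of the 2 fork rescue genes, MMS22L had a difference of -0.61 and its partner TONSL one of -0.22 with siTET2 in LNCaP. The 4 damage kinases all lay below 0 there against siControl, beside 47.3% of all genes, with a median of -0.39. Against nc 1 of the 4, CHEK1, lay below 0, beside 45.7% of all genes, and the median was 0.066. CHEK1, the effector kinase of ATR, was chosen after its values were seen, for its contrast between the lines. Its LNCaP levels were 9.84 with siTET2, 10.54 with siControl, 10.46 with miR-29b and 10.23 with nc, a siTET2 difference of -0.70. Its DU145 levels were 10.64 with siTET2, 10.53 with siControl, 10.55 with miR-29b and 10.51 with nc, so that the siTET2 array was the lowest in LNCaP and the highest in DU145. CHEK2, the effector kinase of ATM, had a LNCaP difference of -0.61, while the upstream kinases ATM and ATR had -0.175 and -0.072.

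The size of the LNCaP difference depended on which control array it was set against. The siControl array of LNCaP was itself above the nc array for 28 of the 31 genes, beside 54.2% of 9839 genes, with a median difference of 0.33, beside 0.022 over all genes. Of the 31, 4 were at least 1.5-fold higher in siControl than in nc (FANCB 0.77, MND1 0.71, MMS22L 0.64 and CHEK2 0.61), beside 1.78% of all genes, and 0 were 1.5-fold lower, beside 0.468%. Of the 27 genes below 0 against siControl, 7 were above 0 against nc: FANCF (0.19), FANCL (0.18), ATM (0.17), ATR (0.13), MMS22L (0.035), CHEK2 (0.0051) and RAD54B (0.0044). How many of all genes changed sign in this way was not counted. Both control arrays were above the siTET2 array for 20 of the 31 genes, beside 26.0% of all genes, and both were below it for 4 genes, beside 34.3%. The 20 included 6 of the 7 strand exchange genes, 5 of the 7 core complex genes, 4 of the 6 resection genes and FANCI, and the 4 were BARD1, PALB2, NBN and RAD50. Over the 4 LNCaP arrays, siTET2 was the lowest for 20 genes (22.6% of all genes) and nc for the other 11 (31.6%), while siControl and miR-29b were the lowest for 0, beside 26.3% and 19.5% of all genes. The siControl array was the highest for 21 of the 31, beside 27.6% of all genes.

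**Figure D3:**
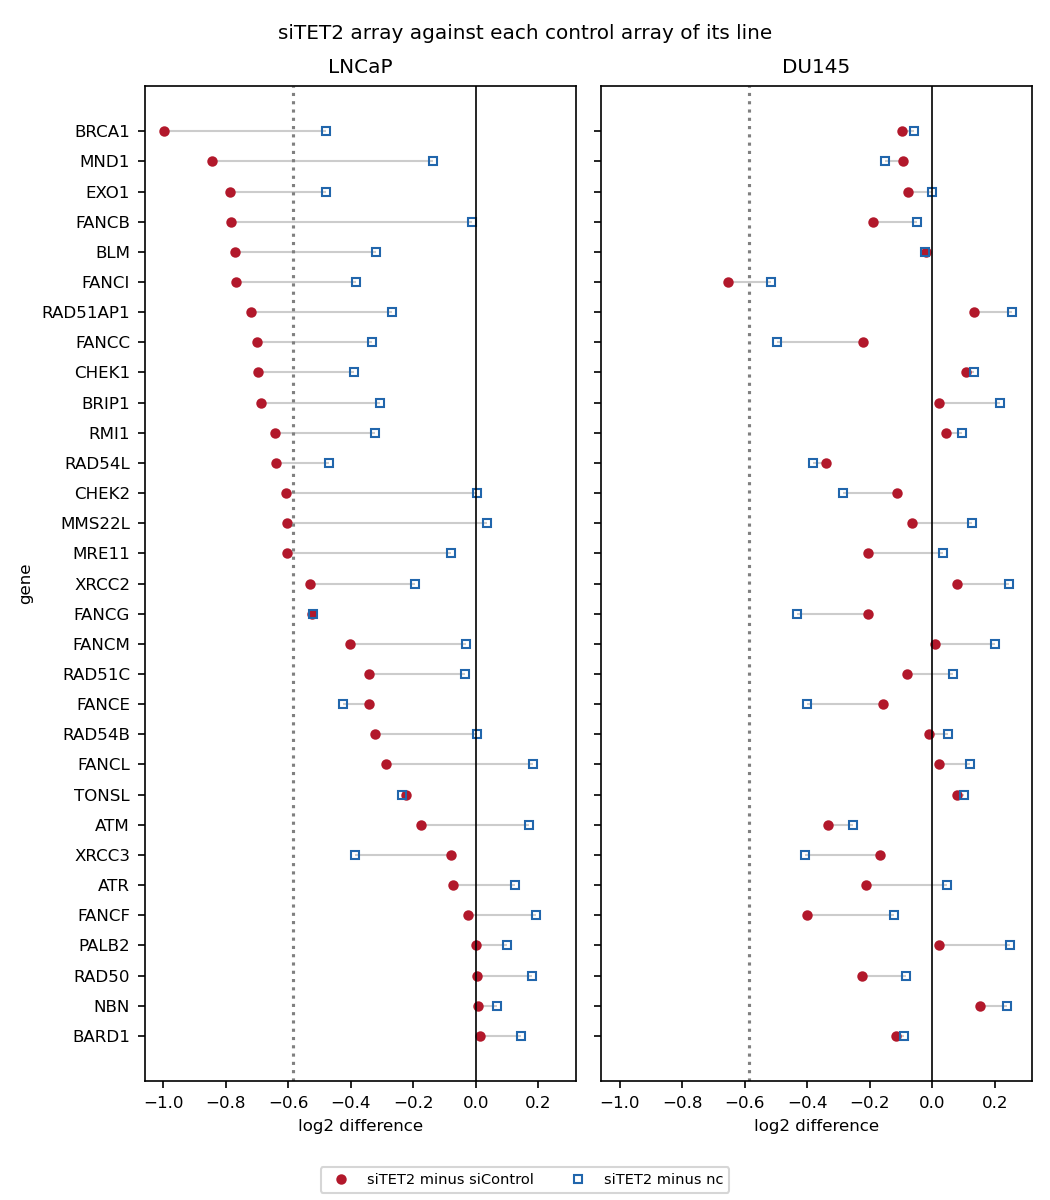
Log2 difference of the siTET2 array from the siControl array (red circles) and from the nc array (blue squares) for each of the 31 genes (rows, in the order of the LNCaP siControl difference), with LNCaP on the left and DU145 on the right; the dotted line marks 1.5-fold lower. In LNCaP 15 red circles and 0 blue squares are past that line, and in DU145 the red circle of FANCI alone.

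In DU145 most of these genes stood near their control level with siTET2, apart from FANCI. The median difference between the siTET2 and siControl arrays was -0.080 over the 27 genes that reached the floor, beside -0.013 over 9718 genes, and RAD54L, FANCF, MND1 and TONSL were below the floor. FANCI (-0.65) was the 1 gene at least 1.5-fold lower, beside 1.58% of all genes, and 0 were 1.5-fold higher, beside 0.916%. There were 18 of 27 genes below 0, beside 52.8% of all genes. Over all 31 genes the next lowest were FANCF (-0.40), RAD54L (-0.34) and ATM (-0.33), and the highest were NBN (0.15) and RAD51AP1 (0.13). The siTET2 array was below both control arrays for 13 of the 27 genes, beside 43.3% of all genes, and above both for 9, beside 33.3%. Both shares are near those of all genes. Against nc, 0 of 27 genes were 1.5-fold lower, beside 2.46% of all genes, and the median was 0.035, or -0.0014 over all 31. Of the 27 genes that reached the floor in each line, 22 had a lower siTET2 difference in LNCaP than in DU145 (PALB2 and NBN among them, above 0 in both lines), beside 48.3% of 8558 genes, and with 1 array per group that difference between lines was not tested.

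A construct effect, taken as the same in both lines, was tested against 0 with limma over 9498 genes. Construct and cell line were the terms, with 3 residual degrees of freedom. Whether the lines shared an effect could not be tested with 1 array per group. The p-values were adjusted by the Benjamini-Hochberg method over all of these genes. FANCI fell with siTET2: its common difference from siControl was -0.71 (SE 0.0919, limma adjusted p = 0.0264), and it was lower in 2 of 2 lines. It was the 1 gene that passed among the 30 tested (FANCB was under the level floor of this fit), beside 0.347% of all genes that passed in that direction (33 genes) and 0.0316% in the other (3 genes). The adjusted p of FANCI missed 0.05 without a level floor (0.140), without the cell line term (1) and with nc as the control (-0.45, 0.0838). It missed it too when an array was left out: 0.394 without LNCaP siControl, 0.196 without DU145 siControl, 0.0743 without DU145 siTET2, and 0.0587 without either miR-29b array. The number of all genes that passed was 0 without either siControl array or without DU145 siTET2, and 141 without LNCaP siTET2.

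The median difference of the 30 genes in this fit was -0.27, beside -0.0006 over all genes, and 28 of the 30 were below 0, beside 50.2% of all genes. At an unadjusted p under 0.05 there were 9 genes, all lower: FANCI, RAD54L, MRE11, FANCG, FANCC, BRCA1, EXO1, FANCE and BLM. Over all genes, 8.33% were lower and 5.53% higher at that level. RAD54L came next to FANCI, with -0.49 (SE 0.0998, limma adjusted p = 0.0808). BRCA1, lowest of all in LNCaP, had -0.55 with a wider error (SE 0.183, limma adjusted p = 0.230), and its difference was -0.997 in LNCaP and -0.097 in DU145. The median was -0.044 with nc as the control.

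With miR-29b the same genes were, for the most part, a little above their nc control in both lines, with medians below those between the control arrays. In LNCaP the median difference from nc was 0.20 over the 28 genes above the floor (FANCB, FANCL and FANCM were below it), beside 0.020 over 9751 genes. Of the 28, 24 were above 0, beside 55.4% of all genes, 2 were at least 1.5-fold higher (MND1 at 0.70 and MMS22L at 0.65), beside 0.605%, and 0 were 1.5-fold lower, beside 0.236%. Against the siControl array, the same miR-29b array had a median difference of -0.079 over 31 genes, and MND1 was at -0.012. The miR-29b array was above both control arrays for 7 of the 28 genes, beside 30.5% of all genes, and below both for 3, beside 23.0%. The 3 were genes of the core complex, FANCC, FANCE and FANCG.

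In DU145 the median difference between miR-29b and nc was 0.066 over 29 genes, beside -0.0425 over 9690 genes, and the range over all 31 genes was -0.29 (FANCE) to 0.31 (TONSL). No gene of the 29 passed 1.5-fold in either direction, where 0.0826% of all genes were that much higher and 0.0516% that much lower. Above 0 were 22 of the 29, beside 35.2% of all genes. The miR-29b array was above both controls for 13 of the 29, beside 20.2% of all genes, and below both for 3, beside 36.8%. Against nc, the 4 BRCA1 group genes and the 6 resection genes were all above 0 in both lines, while the core complex genes were mixed. Over all genes, 55.4% were above 0 in LNCaP and 35.2% in DU145. Against siControl in LNCaP, 3 of the 4 and 4 of the 6 were below 0, beside 49.6% of all genes. Below 0 against nc in LNCaP were 3 of 7 core complex genes (3 of 4 above the floor, beside 44.6% of all genes). Their median was 0.090 over the 7 and -0.030 over the 4. In DU145 5 of the 6 above the floor were below 0, beside 64.8% of all genes. The control arrays of DU145 differed little over these genes, with a siControl minus nc median of 0.087 over 27 genes, 21 of them above 0 (42.4% of all genes) and 0 past 1.5-fold in either direction (0.176% of all genes higher and 0.186% lower).

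In limma, 0 of 30 genes passed for miR-29b against nc common to both lines (0 of 9498 genes, 0%), with 362 genes and 2 of the 30 at an unadjusted p under 0.05, FANCI (0.25) and RAD51C (0.27), and a median of 0.14. For siControl against nc, 0 of 30 passed (0 of all genes, with 1267 at an unadjusted p under 0.05), and the median was 0.22, with 7 of the 30 at an unadjusted p under 0.05. The difference between the effects, siTET2 minus siControl less miR-29b minus nc, also passed for 0 of 30 genes and 0 of all genes, with 1251 genes at an unadjusted p under 0.05. Of the 30, 13 were at an unadjusted p under 0.05, all lower, beside 7.18% of all genes in that direction. There were 29 below 0, beside 49.4% of all genes, and the median was -0.40, beside 0.0026. FANCI had the lowest value, -0.96 (SE 0.130, limma adjusted p = 0.0762). The difference between the effects also holds the offset between the control arrays, the siControl minus nc median of 0.22. With the controls exchanged, the common medians were -0.044 for siTET2 against nc and -0.030 for miR-29b against siControl.

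Other genes of the pathway, from a list that shares none of the 35 names, were less far from siControl in LNCaP. Of 44 above the floor, 7 were at least 1.5-fold lower with siTET2 and 0 higher, beside 2.30% and 0.391% of all genes, and the median was -0.17. In DU145 1 of 45 was lower, near the 1.58% of all genes, with a median of -0.074. Of 46 tested in limma 0 passed and 14 had an unadjusted p under 0.05, 12 lower and 2 higher, beside 8.33% and 5.53% of all genes. Their median was -0.14. The lowest was PSMC3IP, the partner of MND1, with levels of 7.51 with siTET2 and 8.25 with siControl in LNCaP, and of 7.02 with siTET2 and 7.77 with siControl in DU145. Its difference from siControl was -0.74 in both lines (SE 0.136, limma adjusted p = 0.0693), so it was lower in DU145 as well, where MND1 was at -0.093. The nc level of PSMC3IP was 7.70 in LNCaP, nearer to siTET2 than to siControl. In DU145 it was 7.73, close to siControl. Next came TIPIN (-0.56) and CLSPN (-0.53), which relay signals from stalled forks to CHEK1, and EME1 (-0.52), a subunit of a junction-cutting nuclease.

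Genes of the cell cycle were measured beside these, and their siTET2 medians lay further below 0. Of 33 S phase genes above the floor, 14 were at least 1.5-fold lower with siTET2 than with siControl in LNCaP (median -0.56). Of 30 G2/M genes 20 were (median -0.68), and the share of all genes was 2.30%. Both LNCaP control arrays were above the siTET2 array for 32 of the 33 S phase genes and for all 30 G2/M genes. That share was 26.0% over all genes. Against nc the medians of the S phase and G2/M genes were -0.34 and -0.33. In DU145 both medians were -0.16. Between the LNCaP control arrays, siControl minus nc, the medians were 0.19 and 0.35. In limma 0 of 33 S phase genes passed, with a median of -0.38. Of 30 G2/M genes, with a median of -0.41, 1 passed as lower, beside 0.347% of all genes. It was CDK1, the kinase that drives entry into mitosis (-0.83, SE 0.0983, limma adjusted p = 0.0216). The siControl level of CDK1 was itself above nc, by 0.58 in LNCaP and 0.38 in DU145. Its siTET2 and nc levels were 10.82 and 11.22 in LNCaP, and 10.25 and 10.54 in DU145. At an unadjusted limma p under 0.05, 23 of the 33 and 27 of the 30 were lower, beside 8.33% of all genes. GINS1 (-0.59) and MCM10 (-0.57) were the lowest S phase genes of that fit, both parts of the replication machinery. The part of the cell cycle in the repair gene differences was not tested.

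**Figure D4:**
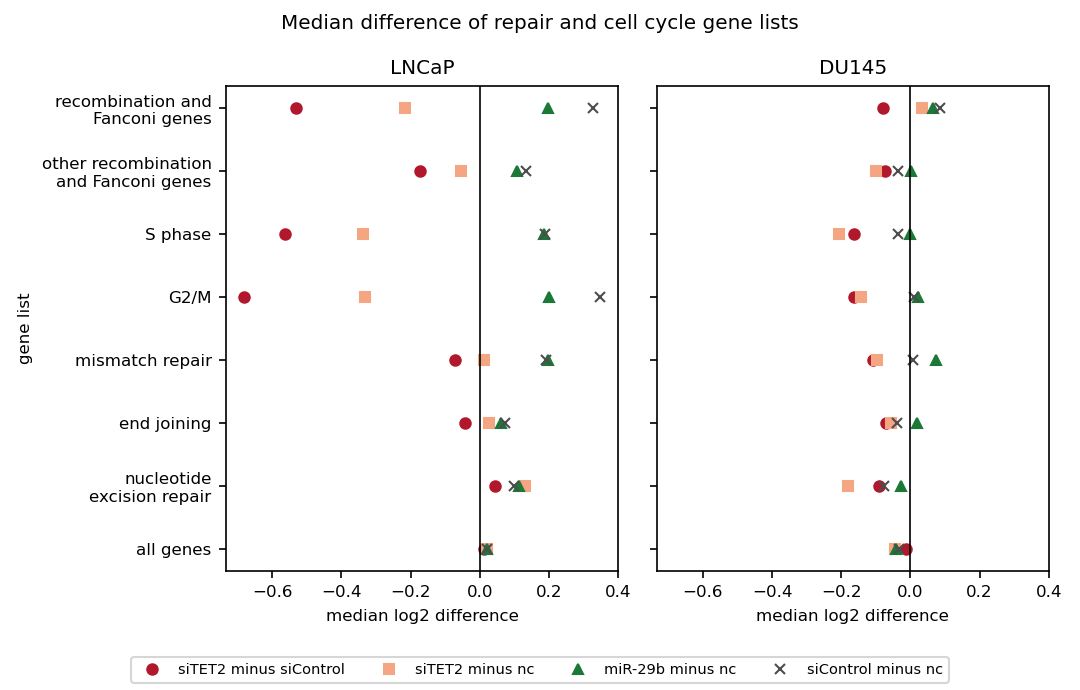
Median log2 difference (horizontal axis) of the recombination and Fanconi genes and of other gene lists (rows), over the members above the level floor, for 4 comparisons in LNCaP (left) and DU145 (right). In LNCaP the recombination and Fanconi genes (-0.53 with siTET2 against siControl) lie beside the S phase (-0.56) and G2/M (-0.68) genes, and in that comparison the mismatch repair (-0.073), end joining (-0.043) and nucleotide excision repair (0.043) lists lie nearer to all genes (0.012).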

How the data were processed

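The authors deposited 1 table of log2 values for 33297 probe sets on 8 arrays, made with Affymetrix Expression Console and RMA per the submitters' processing notes. Which arrays were normalized together, and the log base, are not given in the sources used here, and the values were read as log2. RMA pulls arrays to a common distribution, so a shift shared by all genes would not be seen. The platform annotation gave 1 symbol to 19460 probe sets and several to 1754, and did not list 12083; RefSeq's gene table changed 0 symbols. The probe set with the highest mean stood for a gene.

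Differences of 2 arrays were counted at 1.5-fold above a floor at the 50th percentile. Common effects were fitted with limma 3.58.1 (R 4.3.3; lmFit, eBayes) on the genes whose mean reached the median of such means, and p-values were adjusted by the Benjamini-Hochberg method, with 0.05 as the threshold. "Rose" and "fell" are used for genes that passed it. The fit was tested on simulated data. It recovered 95% of 100 changes of 1 on the log2 scale and 39% of 100 changes of 0.5, with 6 false calls. The simulated arrays held no difference between lines in a construct's effect and no offset between the controls. The labels name no separate cultures. The p-values reflect how far the lines differed in a construct's effect, mixed with variation between arrays, part of which may be technical. The number of arrays limits the precision.

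The members, the gene lists and the tests were chosen with earlier results of these data known. Full values are given for genes that passed limma and for the 8 genes with the largest difference in any treatment comparison of a line, and of each other list up to 4 genes are named; names beyond that are marked. Alternatives varied the floor, the variance model, the probe set, the centring, the cell line term, the control array and the arrays used.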

Additional observations from a re-analysis of the deposited data

Results flagged for a closer look

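In 5 genes the siTET2 array lay on opposite sides of siControl in LNCaP and DU145, with the lines at least 1.5-fold apart. The differences in LNCaP and DU145 were -0.69 and 0.021 for BRIP1, -0.72 and 0.13 for RAD51AP1, and -0.53 and 0.079 for XRCC2. They were -0.70 and 0.11 for CHEK1 and -0.64 and 0.045 for RMI1. The DU145 differences of BRIP1, XRCC2 and RMI1 were smaller than the median residual SD of the limma fit, 0.097. With miR-29b against nc, MND1 was at 0.70 in LNCaP and -0.27 in DU145, where it was under the level floor, and CHEK2 was at 0.49 and -0.11. With 1 array per group the difference between the lines was not tested in any of these genes. The share of all genes that meet the same rule was not counted.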

How the results depend on the processing

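With nc as the control for siTET2, the LNCaP median was -0.22 and 0 members were 1.5-fold lower, 7 of the 31 members, CHEK2 (0.0051) and MMS22L (0.035) among them, changed sign, the DU145 median was 0.035 with 0 members lower, and in limma the common median was -0.044, with 0 members and 15 genes passing. With the mean of both controls the LNCaP median was -0.35 with 2 members lower, DU145 had 0 lower, and the common median was -0.17 with 84 genes passing. With siControl as the control for miR-29b, the common median was -0.030 and the LNCaP median was -0.079 with 0 members higher. In LNCaP 20 members, MND1 (-0.012) among them, were then below 0 where they had been above 0 against nc. The share of all genes that changed sign with the control array was not counted, for siTET2 or for miR-29b. With the mean of both controls the LNCaP median of miR-29b was 0.075 with 0 members higher. In the siTET2 fit, no floor left 0 members and 1 gene passing, a floor at the 75th percentile 80 genes, an intensity trend 99 genes, and no cell line term 0 members and 0 genes. For the difference between the effects, the 75th percentile floor gave 1 member and 7 genes, the trend 1 and 16, and centring 6 genes.

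Leaving out 1 array at a time gave a common siTET2 median of -0.46 to -0.15, with 0 to 1 members and 0 to 141 genes passing. At an unadjusted p under 0.05 there were 3 to 18 members. For miR-29b minus nc it gave medians of 0.073 (without LNCaP miR-29b) to 0.16, with 0 to 5 members at an unadjusted p under 0.05. It gave siControl minus nc medians of 0.068 to 0.33, and for the difference between the effects -0.56 to -0.29, with 0 to 32 genes passing. Within LNCaP, the 75th percentile floor left 4 members lower with siTET2 and 0 higher with miR-29b. At 2-fold, 0 were lower with siTET2 in LNCaP and 0 in DU145, 0 higher with miR-29b in LNCaP, and 0 higher between the LNCaP controls. Fewer members clear the stricter floor and the larger fold by construction; the cause of the other changes was not tested. The other 242 values recomputed for the main results stayed within 1.5 times or within the residual SD. Of the recomputed values of single genes, 473 stayed so, 153 moved by more, and 8 (all FANCI, given with its result) lost the call. A further 3 changed sign from a main difference of at least 1.5-fold. Sign changes of smaller differences are counted among the 473 and the 153. No paired analysis was possible because the labels carry no replicate numbers and each group holds 1 array.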

Other observations

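Repair pathways outside recombination had smaller median differences from siControl with siTET2 than the recombination genes in LNCaP. There the median difference from siControl was -0.043 over 14 end joining genes, -0.073 over 7 mismatch repair genes and 0.043 over 15 nucleotide excision repair genes. In DU145 the medians were -0.069, -0.11 and -0.091. The mismatch repair genes were below 0 in 7 of 7 in LNCaP, beside 47.3% of all genes, and in 6 of 7 in DU145, beside 52.8%; against nc they were below 0 in 3 and 5 of 7. In limma 0 of 15, 0 of 7 and 0 of 13 of them passed. POLQ, the polymerase of microhomology-mediated end joining, had a difference of -0.84 in LNCaP and -0.0535 in DU145 (common difference -0.45, SE 0.169, limma adjusted p = 0.292). LIG3, a DNA ligase that also acts in end joining, had 0.018 in LNCaP and -0.52 in DU145. PCNA, the sliding clamp of DNA replication listed here with mismatch repair, had -0.45 in LNCaP and -0.21 in DU145. XRCC4, the scaffold of end joining ligation, differed most between the control arrays of DU145, with siControl at 9.30 and nc at 8.57.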
